A study of Homo sapiens with 6 samples.

Results

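Genes of mitosis and DNA replication were followed in NB4 cells, an established human line of acute promyelocytic leukemia, with and without ATPR, a derivative of all-trans retinoic acid. A list of 44 genes was drawn up by function, with earlier results of these data known. Each was represented by 1 catalogue oligonucleotide of the array, and 36 of the 44 were found among the 138405 features measured. The other 8 (RRM2, MCM10, CDC6, CDKN3, NCAPG, UBE2C, KIF11 and FOXM1) were not analysed here. The deposited spot files name each oligonucleotide by its identifier only, so the gene names are those of the supplied list and were not checked against transcripts.

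Total RNA was taken after 72 h from 3 control cultures, which received the solvent, and from 3 ATPR cultures, and every RNA was measured on an array of its own (Agilent, 1 colour, oligonucleotides of 60 bases). The study describes the arrays as independent experiments. No concentration of ATPR is given for the arrays, and the label text on treatment, the same for both groups, also mentions an irradiation of the cells. NB4 is 1 cell line, and its identity could not be checked here against marker genes, because no marker could be assigned to an oligonucleotide.

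A dividing cell copies its chromosomes in S phase, when the nucleotide supply and the replication factors are needed, and separates the copies in mitosis. Entry into mitosis depends on CDK1 bound to a cyclin, the spindle checkpoint holds anaphase back until every chromosome is attached, and the anaphase-promoting complex then releases the sister chromatids. Most of these genes are transcribed in a wave, the replication genes earlier through E2F factors and the mitotic genes later through MYBL2, FOXM1 and the MuvB core. Retinoids are known for driving promyelocytic leukemia cells out of the cell cycle and into granulocytic differentiation.

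Levels are given on the log2 scale relative to the 75th percentile of each array, taken over the 31233 features detected (well above background) on each of the 6 arrays. Levels of different genes come from different oligonucleotides and were not compared with each other. The call required an adjusted p-value below 0.05 (limma, Benjamini-Hochberg over 44840 tested features) together with a fold change of at least 2. Before this scaling the log2 percentile itself went from 8.85 ± 0.16 (SD, n = 3) in controls to 7.87 ± 0.15 (SD, n = 3) under ATPR. Added E1A control RNAs moved the opposite way, from 8.25 ± 0.07 (SD, n = 3) to 8.62 ± 0.23 (SD, n = 3), and values scaled to these RNAs are given with the results. All control arrays lay on 1 slide and the ATPR arrays on 2 others, so slide and treatment cannot be told apart. No spot was saturated. Control replicate 2 was the lowest of the control arrays for 26 of the 36 genes, so its effect is given with the results and described after them. In RNA from a whole culture, fewer cycling cells and less of each transcript per cell cannot be told apart.

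The 17 genes that were detected on all 6 arrays were each downregulated in the ATPR group, where 14.2% of the 31233 features detected on all arrays were called lower. Their median log2 difference was -3.65, against 0.22 over those features, and the decrease ran from 3.90-fold to 19.7-fold. The adjusted p-values of these 17 genes (limma) ran from 2.52e-05 for CDCA8 to 0.000983 for KIF20A.

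The other 18 tested genes passed the filter only through the control group, where they were high, so that their calls are no independent support and their ATPR values lie partly or wholly at the background. Of these, 7 were detected on 1 or 2 ATPR arrays, and their measured differences rest partly on undetected values. The remaining 11 were detected on no ATPR array, and only a lower bound of the fold change is given for them. All 18 met the criteria for a lower call, as did 23.8% of all tested features. That share is no like background for them. Among features detected on all 6 arrays it was 14.2%, so the remaining tested features were called lower more often than 23.8%. The share among features that passed through the control group alone was not counted. No gene of the set met the criteria for a higher call, which 12.0% of all tested features did.

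On the ATPR arrays many of the genes were no longer detected. In the control group 36, 35 and 36 of the 36 genes were well above background on replicates 1, 2 and 3, against 22, 19 and 18 in the ATPR group. Detection also fell over the whole array. Of all spots other than control spots, 38.4%, 35.8% and 39.0% were well above background on the control arrays. On the ATPR arrays these shares were 29.6%, 29.4% and 28.4%. The median level of the 36 genes was 0.05, -0.25 and 0.01 on the control arrays, against -3.85, -4.31 and -4.38 on the ATPR arrays. In all 36 genes, undetected values included, the highest ATPR value lay below the lowest control value, an order that 32.0% of all tested features also had. The smallest such gap was 1.63 on the log2 scale among the 17 genes detected throughout, in TK1.

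**Figure D1:**
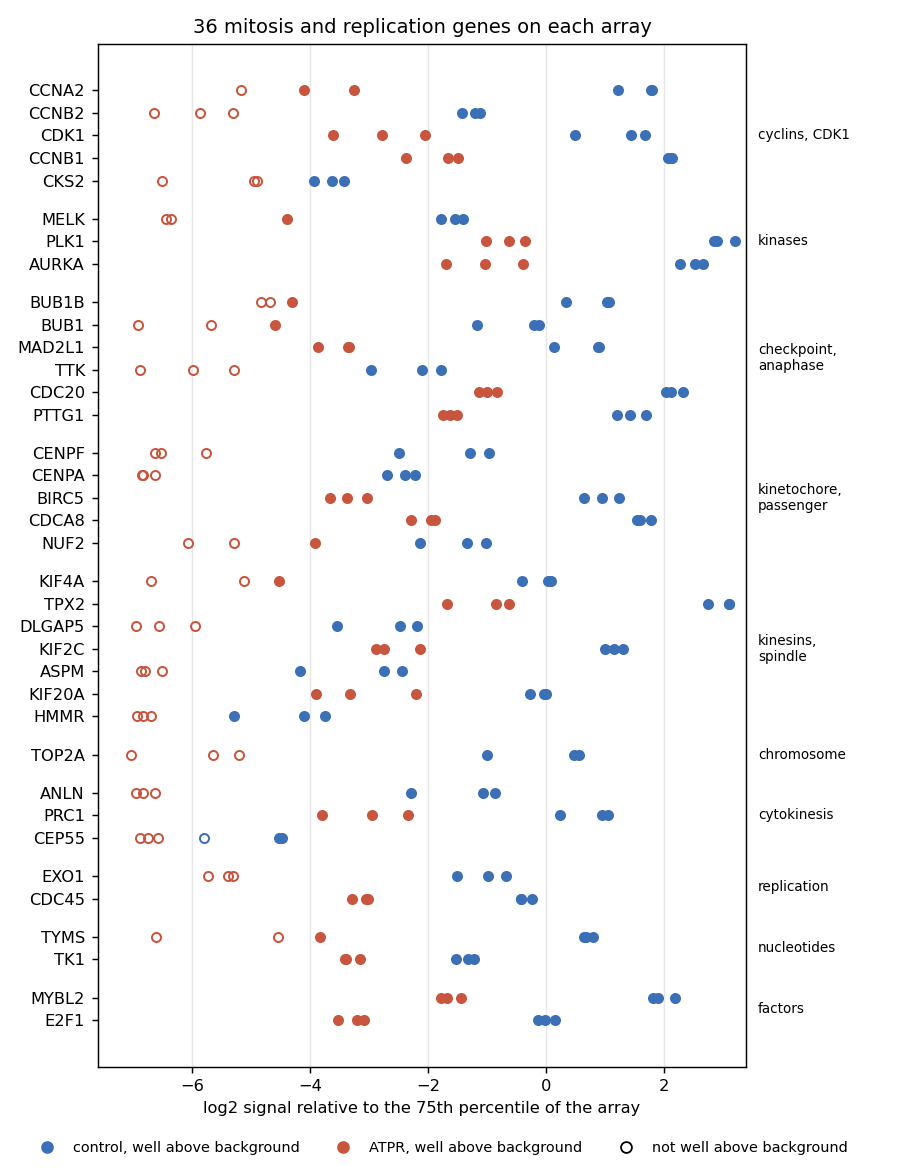
Level of each of the 36 genes on each of the 6 arrays, as log2 signal relative to the 75th percentile of the array, with genes grouped by role. Blue points are control arrays and red points ATPR arrays, open where the oligonucleotide was not well above background. The blue and red points of no gene overlap, and 11 tested genes have open points on all 3 ATPR arrays.

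Of the 5 mitotic cyclins, CDK1 and partners in the files, CCNB1 and CDK1 were detected on all arrays, and both were downregulated. CCNB1, the B-type cyclin that activates CDK1 at the entry into mitosis (A_23_P122197), had a level of 2.15, 2.08 and 2.07 on the control arrays, against -1.49, -1.66 and -2.37 on the ATPR arrays. The control values lay close together and the ATPR values were spread more widely, with replicate 3 lowest. CCNB1 was 15.3-fold lower in the ATPR group (log2 difference -3.94, SE 0.26, adjusted p = 4.93e-05, limma), so that 6.53% of the control level was left. The unscaled processed signals of CCNB1 were 2204, 1713 and 2036 in the control group, against 93.5, 72.2 and 41.4 in the ATPR group. CDK1, the kinase itself (A_23_P138507), stood at 1.45, 0.49 and 1.69 and at -3.61, -2.78 and -2.05. CDK1 was 16.2-fold lower (log2 difference -4.02, SE 0.47, adjusted p = 0.000487, limma), and its low control value on replicate 2 is taken up below.

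CCNA2, the cyclin of S phase and early mitosis, was well above background on 2 of the 3 ATPR arrays. Its level was 1.78, 1.22 and 1.81 in the control group, against -3.25, -4.10 and -5.17 in the ATPR group. The measured log2 difference was -5.78 (SE 0.47, adjusted p = 0.000106, limma) and rests partly on the undetected value of ATPR replicate 3. After flagged spots were dropped, 8, 10 and 8 spots of CCNA2 were left on the control arrays and 10 on each ATPR array. They differed among themselves by an SD of 0.03 to 0.06 (log2) on the control arrays, and on the ATPR arrays by 0.22, 0.32 and 0.65. The second B-type cyclin, CCNB2, was undetected on every ATPR array and was at least 12.0-fold lower. CKS2, a small subunit of the CDK1 complex undetected on every ATPR array, was at least 2.26-fold lower. Its adjusted p-value, which belongs to its measured values and not to the bound, was the highest of the set, 0.0141 (limma). Leaving out control replicate 1 or 3 raised that p-value to 0.0504 and 0.0575, so the call for CKS2 rested on both arrays.

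Of the 3 mitotic kinases, PLK1 and AURKA were detected on all arrays, and both were downregulated. PLK1, which drives centrosome maturation and mitotic entry (A_23_P118174), had a level of 2.85, 3.21 and 2.89 on the control arrays, against -1.02, -0.62 and -0.35 on the ATPR arrays. PLK1 was 12.6-fold lower (log2 difference -3.65, SE 0.24, adjusted p = 4.53e-05, limma). AURKA, the centrosomal and spindle pole kinase (A_23_P131866), was at 2.66, 2.27 and 2.53 and at -0.38, -1.04 and -1.70. The order of the ATPR arrays differed between these kinases, with replicate 1 lowest for PLK1 and highest for AURKA. AURKA was 11.5-fold lower (log2 difference -3.53, SE 0.34, adjusted p = 0.00022, limma). MELK, a kinase abundant in proliferating progenitors, was detected on ATPR replicate 1 alone. Its measured difference was -4.16 and became -4.83 without that array.

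Of the 6 genes of the spindle checkpoint and of anaphase, MAD2L1, CDC20 and PTTG1 were detected on all arrays, and all 3 were downregulated. MAD2L1, the MAD2 protein of the checkpoint (A_23_P92441), was at 0.91, 0.15 and 0.89 in the control group, against -3.87, -3.33 and -3.36 in the ATPR group. It was 18.0-fold lower (log2 difference -4.17, SE 0.28, adjusted p = 5.26e-05, limma). PTTG1, the securin that restrains separase (A_23_P7636), was at 1.70, 1.21 and 1.42 and at -1.75, -1.62 and -1.51. PTTG1 was 8.39-fold lower (log2 difference -3.07, SE 0.21), and its 10 spots differed among themselves by an SD of at most 0.17 on any array. CDC20, the activator of the anaphase-promoting complex, was 8.90-fold lower (log2 difference -3.15, SE 0.19). The checkpoint kinases BUB1 and BUB1B were each detected on ATPR replicate 1 alone, and their measured differences of -5.24 and -5.42 rest on undetected values on the other ATPR arrays. Without ATPR replicate 2 the difference of BUB1 was -4.65. TTK, the checkpoint kinase also called MPS1, was at least 5.88-fold lower.

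Of the 5 genes of the centromere and kinetochore, BIRC5 and CDCA8 were detected on all arrays, and both were downregulated. BIRC5, or survivin, the subunit that brings the chromosomal passenger complex to the centromere (A_23_P118815), had the largest difference of the 17 genes measured on all arrays, although after normexp correction 7 of them had a larger one. Its level was 1.23, 0.96 and 0.65 in the control group, against -3.37, -3.03 and -3.66 in the ATPR group. BIRC5 was 19.7-fold lower (log2 difference -4.30, SE 0.25, adjusted p = 3.11e-05, limma), and only 39 of the 31233 features measured on all arrays had a lower value. CDCA8, or borealin, of the same complex (A_23_P375), was at 1.55, 1.78 and 1.60 and at -1.95, -1.88 and -2.29. It was 12.9-fold lower (log2 difference -3.69, SE 0.20). CENPA, the histone variant that marks the centromere, was at least 5.27-fold lower, and CENPF, a kinetochore protein that accumulates before mitosis, was at least 9.55-fold lower. NUF2, of the complex that attaches microtubules, was detected on ATPR replicate 3 alone, with a measured difference of -3.59.

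Of the 7 kinesins and spindle proteins, TPX2, KIF2C and KIF20A were detected on all arrays, and all 3 were downregulated. TPX2, which activates AURKA on spindle microtubules (A_23_P68610), was at 3.10, 2.75 and 3.11 in the control group, against -0.62, -0.84 and -1.67 in the ATPR group. TPX2 was 16.4-fold lower (log2 difference -4.03, SE 0.31, adjusted p = 7.99e-05, limma). KIF20A, a kinesin of the central spindle (A_23_P256956), was at 0.002, -0.26 and -0.03 and at -3.32, -3.89 and -2.20. It was 8.25-fold lower (log2 difference -3.04, SE 0.41), with an SD between arrays of 0.86 in the ATPR group against 0.14 in the control group. KIF2C, a kinesin that takes microtubules apart at the centromere, was 13.3-fold lower. KIF4A, the chromokinesin, was detected on 1 ATPR array, and its measured difference of -5.35 became -4.70 without ATPR replicate 3. The spindle proteins DLGAP5 and ASPM were at least 4.30-fold and at least 3.30-fold lower.

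HMMR, a spindle assembly protein that also binds hyaluronan, was dim in the control group already, so that its bound was 1.38-fold only. Its level was -4.10, -5.29 and -3.74 on the control arrays, against -6.93, -6.83 and -6.70 on the ATPR arrays. The oligonucleotide was undetected on every ATPR array. HMMR met the criteria of the call on its measured values only, since its bound lies below the required fold change of 2.

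TOP2A, the topoisomerase that disentangles sister chromatids, had the greatest bound of the set. Its level was 0.48, -0.99 and 0.57 in the control group, against -7.03, -5.20 and -5.64 in the ATPR group, where it was not well above background. TOP2A was at least 28.9-fold lower. Its adjusted p-value of 0.000228 (limma) belongs to the measured values, undetected under ATPR, and does not test this bound.

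Of the 3 cytokinesis genes, PRC1 was detected on all arrays and was downregulated, and CEP55 was not tested. PRC1, which bundles microtubules between the separating chromosomes (A_23_P206059), was at 1.06, 0.25 and 0.95 in the control group, against -2.34, -2.95 and -3.80 in the ATPR group. It was 13.7-fold lower (log2 difference -3.78, SE 0.41, adjusted p = 0.000348, limma). ANLN, the scaffold of the contractile ring, was at least 10.8-fold lower. CEP55, which recruits the machinery of abscission (A_23_P115872), was well above background on 2 of the 3 control arrays. Its level was -4.52, -5.79 and -4.47 in the control group, against -6.89, -6.75 and -6.58 in the ATPR group, and the lowest control value, of replicate 2, was the undetected one.

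The replication and nucleotide genes included the smallest change among the genes measured on all arrays. CDC45, a part of the replicative helicase (A_23_P57379), was at -0.42, -0.24 and -0.42 in the control group, against -3.02, -3.05 and -3.30 in the ATPR group. It was 6.77-fold lower (log2 difference -2.76, SE 0.19, adjusted p = 5.15e-05, limma). EXO1, an exonuclease of mismatch repair and recombination, was at least 13.8-fold lower. TK1, the thymidine kinase of S phase (A_23_P107421), was at -1.52, -1.23 and -1.31 and at -3.39, -3.41 and -3.15. TK1 kept 25.6% of its control level, a 3.90-fold decrease (log2 difference -1.96, SE 0.19, adjusted p = 0.000233, limma), and 1707 of the 31233 features measured on all arrays had a lower value.

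TYMS, the thymidylate synthase, supplies the same nucleotide by the other route and spread most between arrays of a group. Its level was 0.68, 0.80 and 0.64 in the control group, against -3.84, -4.55 and -6.61 in the ATPR group, an SD of 0.08 against 1.44. Every ATPR array was far below the control arrays, and ATPR replicate 1 alone was well above background. The measured difference of TYMS was -5.71. It ran from -4.87 without ATPR replicate 3 to -6.29 without ATPR replicate 1.

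The transcription factors E2F1 and MYBL2 were both detected on all arrays and downregulated. E2F1, which binds the promoters of replication genes (A_23_P80032), was at -0.01, 0.15 and -0.13 in the control group, against -3.20, -3.53 and -3.08 in the ATPR group. It was 9.67-fold lower (log2 difference -3.27, SE 0.21, adjusted p = 4.01e-05, limma). MYBL2, or B-Myb, which acts with the MuvB core on mitotic promoters (A_23_P143190), was at 1.82, 2.19 and 1.91 and at -1.78, -1.67 and -1.44. MYBL2 was 12.1-fold lower (log2 difference -3.60, SE 0.20, adjusted p = 2.82e-05, limma).

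Among the 17 genes measured on all arrays the decrease ran from 3.90-fold in TK1 to 19.7-fold in BIRC5, with a median of 12.6-fold, and 15 of them fell by more than 8-fold. From the greatest to the least decrease they were BIRC5, MAD2L1, TPX2, CDK1, CCNB1, PRC1, KIF2C, CDCA8, PLK1, MYBL2, AURKA, E2F1, CDC20, PTTG1, KIF20A, CDC45 and TK1. Of the 16 steps between neighbours in this order, 15 were no larger than 2 combined standard errors. The exception was the step from CDC45 to TK1, of 0.80 on the log2 scale with a combined standard error of 0.27. The combined standard error treats neighbouring genes as independent, although they were measured on the same arrays, so it only describes the steps. By this measure the positions of the others relative to their neighbours were not resolved by 3 arrays per group. After normexp correction the order changed, with TPX2 (-3.66), PLK1 (-3.40) and AURKA (-3.16) at the top and BIRC5 (-2.73) in place 8, while CDC45 and TK1 stayed last. Leaving out any 1 array moved no fold change of these 17 genes by more than 1.5 times.

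**Figure D2:**
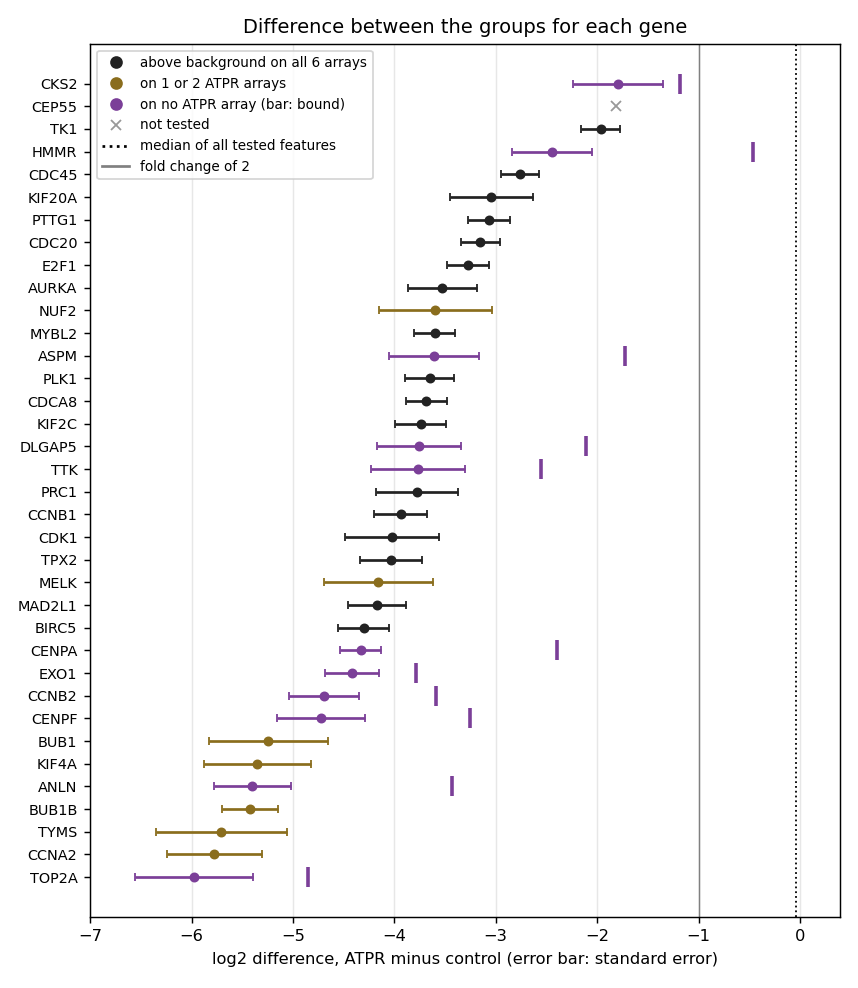
Log2 difference between ATPR and control for each gene, with its standard error, coloured by how many ATPR arrays were above background. Short upright bars mark the bound of the 11 genes detected on no ATPR array, and CEP55 (cross) was not tested. The 17 genes detected on all arrays (black) lie between -4.30 and -1.96, and the bound of HMMR stays within a fold change of 2.

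Scaling to the E1A control RNAs subtracts 1 value per array and so moved all genes together. It lowered the median of all tested features to -1.38 and the median measured difference of the 36 genes from -3.77 to -5.11. Relative to all features the genes stood at -3.74 under both scales by construction, against -3.97 after quantile normalization and -2.46 after normexp correction. The same 35 genes counted as called lower under the E1A scale, under quantile normalization and in the log2 values that the authors deposited. Over all features, 28646 of 44840 were called lower on the E1A scale, against 10667 of 44840 in the main test. Quantile normalization gave 9704 of 44840 and the authors' values 9725 of 44831. The normexp background correction, which adds 50 to every signal, narrowed the differences of dim genes and left 25 called. Of the 44840 tested features this correction left 3144 called lower. It turned the measured difference of HMMR (0.25), CEP55 (0.43) and CKS2 (0.28) positive, while the median of all tested features rose to 0.41. Under this correction TK1 (-0.75), MELK (-0.92), NUF2 (-0.92), CENPF (-0.99), TTK (-0.55), CENPA (-0.52), DLGAP5 (-0.30) and ASPM (-0.18) also fell short of the call. Of the 17 genes measured on all arrays, TK1 was the only one to lose its call there.

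**Figure D3:**
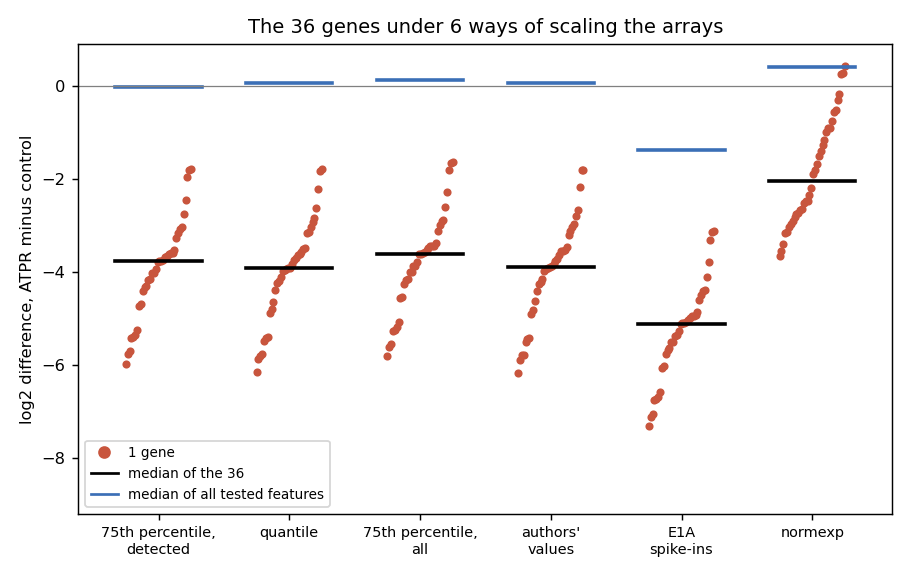
Log2 difference between ATPR and control of each of the 36 genes (red points, ordered within each column) under 6 ways of scaling or correcting the arrays. The black line is the median of the 36 genes and the blue line that of all tested features. The median of the genes lies at -3.77 with the 75th percentile of detected features, at -5.11 on the E1A scale and at -2.05 after normexp correction, where 3 genes lie above 0.

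The control arrays were not alike for these genes. On control replicate 2, 15 of the 35 tested genes (42.9%) lay more than 0.5 (log2) below the mean of replicates 1 and 3, against 17.5% of all tested features. The median deviation was -0.38 for the genes and 0.04 for all tested features. ASPM deviated most, by -1.58, and TOP2A by -1.52, whereas PLK1 lay 0.34 above. The deviation moved with the base composition of the oligonucleotides, with Pearson's r of 0.58 and Spearman's rho of 0.60 over the 35 genes, which share the 3 arrays. Over all tested features Pearson's r was 0.29. In the range of 35% to 40% G+C the 11 genes of the set had a median deviation of -1.02, against -0.24 for all features of that range, and the part of base composition in this deviation was not tested. The sequences of 4 oligonucleotides, printed as designed, show the range, with CDK1 (36.7% G+C, deviation -1.08) and CCNB1 (40%, -0.02) at the low end and CDC20 (53.3%, 0.25) and PLK1 (53.3%, 0.34) at the high end.
CDK1: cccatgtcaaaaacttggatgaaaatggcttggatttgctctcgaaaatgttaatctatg
CCNB1: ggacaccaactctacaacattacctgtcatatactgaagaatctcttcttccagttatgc
CDC20: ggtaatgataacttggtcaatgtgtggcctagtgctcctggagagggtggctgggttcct
PLK1: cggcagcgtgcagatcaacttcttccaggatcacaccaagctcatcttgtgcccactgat
At the G+C share of CCNB1 the deviations varied widely, and that of CENPF, also at 40%, was -1.37. Without control replicate 2 the median measured difference of the 36 genes was -4.12, and no gene's fold change moved by more than 1.44 times.

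**Figure D4:**
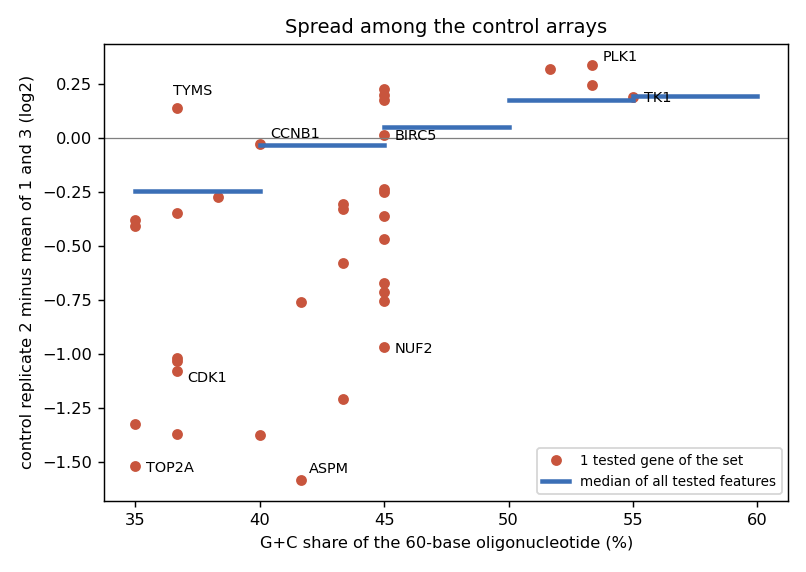
Deviation of control replicate 2 from the mean of control replicates 1 and 3 (log2) against the G+C share of the 60-base oligonucleotide, for the 35 tested genes (red points). Blue lines are medians of all tested features in 5 ranges of G+C. ASPM, TOP2A and CDK1 lie more than 1 below 0, and PLK1 lies at 0.34.

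The promoters of these genes were then searched for the short elements known from cell cycle transcription. RefSeq promoter windows of GRCh38.p14, from 250 bases before to 50 bases after the gene start, matched 32 of the 36 genes, and those of BIRC5, TPX2, AURKA and TTK were not analysed here. Both strands were searched for the cell cycle homology region (CHR, TTTGAA or TTTAAA), the CCAAT box (CCAAT) and E2F sites (TTTCCCGC, TTTGGCGC, TTTCGCGC or TTTGCCGC), each counted on its own, so that neighbouring matches may share letters. A CHR was present in 24 of the 32 windows (75%), against 24.3% of the 27305 promoters in the table, and the form TTTGAA alone in 59.4% against 15.4%. CCAAT was found in 71.9% against 35.7%, and at least 2 copies of it in 50% against 11.3%. The E2F letters were found in 5 windows (15.6%, against 3.33%), those of CDK1, CENPA, TYMS, EXO1 and E2F1. Both a CHR and a CCAAT box were present in 59.4% of the windows and in 9.49% of all promoters. These shares describe genes chosen by function with earlier results of these data known, and say nothing of what binds there in NB4 cells.

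The elements were unevenly divided between the roles. A CHR was found in 23 of the 26 windows of mitosis genes (88.5%), the windows of CCNA2, BUB1 and MELK having none, but in TK1 alone of the 6 replication, nucleotide and factor genes. E2F letters occurred in 3 of those 6 windows and in 2 of the 26. The windows of MYBL2 and MELK matched no element searched. The stretch from 200 to 1 bases before the start is printed for CCNB1 (GRCh38.p14, chr5:69166950-69167149), CCNB2 (chr15:59104946-59105145), CDC20 (chr1:43358781-43358980) and PLK1 (chr16:23678689-23678888), each on the plus strand. These were planned for printing by role before motifs were counted, as were CDC6, which was not analysed here, and MYBL2. MYBL2, without the paired arrangement of CHR and CCAAT, was left out, so the promoters shown all hold both. Capitals mark CHR and CCAAT matches on either strand.
CCNB1: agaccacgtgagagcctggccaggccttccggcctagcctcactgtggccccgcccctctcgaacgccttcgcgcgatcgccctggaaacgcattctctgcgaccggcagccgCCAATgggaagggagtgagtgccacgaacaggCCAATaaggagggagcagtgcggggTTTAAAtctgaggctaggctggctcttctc
CCNB2: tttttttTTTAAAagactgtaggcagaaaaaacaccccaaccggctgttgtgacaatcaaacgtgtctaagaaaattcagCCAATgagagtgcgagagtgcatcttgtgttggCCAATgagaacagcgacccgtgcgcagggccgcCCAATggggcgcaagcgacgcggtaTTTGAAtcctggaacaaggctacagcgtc
CDC20: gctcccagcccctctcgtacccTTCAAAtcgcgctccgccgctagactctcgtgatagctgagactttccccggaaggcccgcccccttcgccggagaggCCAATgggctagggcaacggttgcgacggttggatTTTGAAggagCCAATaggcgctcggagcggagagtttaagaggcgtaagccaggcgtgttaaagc
PLK1: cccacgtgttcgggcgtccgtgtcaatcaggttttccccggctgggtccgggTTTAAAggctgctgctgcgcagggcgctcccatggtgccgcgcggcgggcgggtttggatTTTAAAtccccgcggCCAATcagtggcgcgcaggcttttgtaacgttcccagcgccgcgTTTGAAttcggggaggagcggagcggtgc
In CCNB1, CCNB2 and PLK1 the CHR nearest the start began 30, 29 and 29 bases before it, with the nearest CCAAT box beginning 55, 54 and 73 bases before it. In CDC20 the CHR nearest the start began 65 bases before it, between CCAAT boxes that began 100 and 55 bases before it. All 35 tested genes were called lower in the ATPR group, among them MYBL2 and MELK, whose windows held no match. The calls therefore cannot tell genes with and without a match apart, and a part of the elements in the decrease was not tested.

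**Figure D5:**
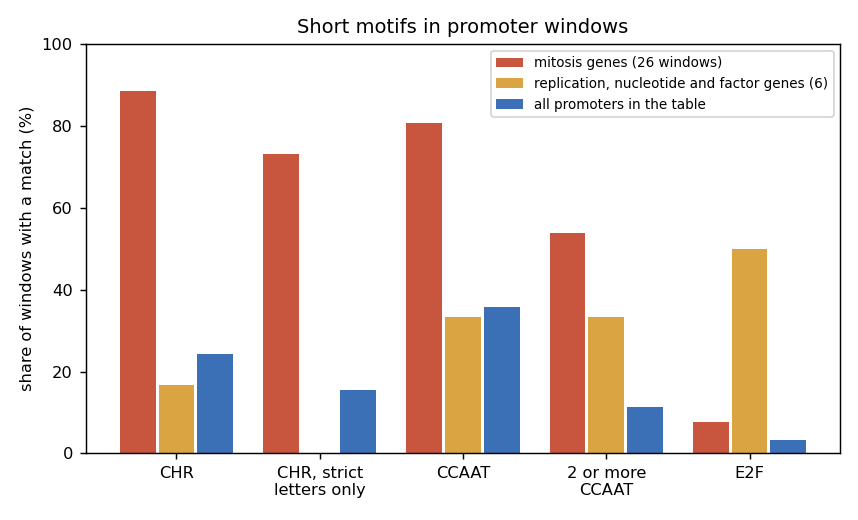
Share of promoter windows (%) with at least 1 match to each element on either strand, for mitosis genes, for replication, nucleotide and factor genes, and for all 27305 promoters in the table. The strict CHR column counts TTTGAA only, and it is 0% for the 6 replication, nucleotide and factor genes. A CHR is present in 88.5% of the mitosis windows against 24.3% of all promoters.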

How the data were processed

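The 6 arrays, 3 control and 3 ATPR, each held RNA of 1 NB4 culture and were grouped by the labels. The authors deposited spot intensity files, made with Agilent Feature Extraction (version 10.7.1.1 in the submitters' processing notes), and a table of log2 values that the authors had normalized. How those log2 values were made is not given in the sources used here beyond a normalization relative to the control. Log2 of the processed signal, which Feature Extraction had already corrected for background, was taken here, outlier-flagged spots were dropped, and repeated spots were averaged. A feature was well above background on an array where this held for at least 50% of its unflagged spots. A feature entered the test if every array of the control or of the ATPR group detected it. The test was limma 3.58.1 under R 4.3.3, two-sided, with eBayes moderation and p-values adjusted by Benjamini-Hochberg over all tested features. SE is limma's moderated standard error.

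A bound ("at least") sets the control mean against, on each ATPR array, whichever is higher, the gene's signal there or the dimmest signal among features well above background. The measured differences of such genes are not fold changes. The dimmest detected signal is the lowest limit an array allows, and the limit of a single gene may be higher. The control mean also enters without its error, so a bound is an estimate and not a confidence limit. All 36 genes are named. Values on every array are given for CCNB1, E2F1, the greatest and least difference of each role among genes measured on all arrays, genes not called and the gene with the greatest spread, and also for CCNA2, HMMR and TOP2A, which were added after their values were seen. The genes, roles and lists were chosen with earlier results of these data known. Lists of other cell cycle genes and of blood cell markers were planned and not run, since no table used here pairs oligonucleotides with genes. With 3 arrays per group, the smallest two-sided p-value of an exact permutation test is 0.1, and the number of arrays limits the precision. The functions were tested on simulated data. Files were read with Python 3.11.15, numpy 2.4.6 and pandas 2.3.3, and plots were drawn with matplotlib 3.10.9. The alternatives were other scalings, the authors' log2 values, normexp correction (offset 50), other filters, blocks and moderation, the t-test that the study names for its array comparison, a stricter p-value, and leaving out each array.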

Additional observations from a re-analysis of the deposited data

How the results depend on the processing

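The count of genes called higher was 0 under every alternative run (at an unadjusted p below 0.05 in a plain t-test as well), and the count called lower was 35 except where given here. It was 17 when only features well above background on all 6 arrays were tested, since only 17 of the genes then enter. Over all features 4501 of 31233 were then called lower. Without a filter it was 36, where CEP55, undetected on every ATPR array, entered (12207 of 138405 features). At an adjusted p below 0.01 it was 34, where CKS2 was lost (adjusted p = 0.0141, limma). The t-test after Benjamini-Hochberg adjustment also gave 34 (8015 of 44840 features), with CKS2 lost (adjusted p = 0.0715, t-test). After normexp correction it was 25 (3144 of 44840 features). The main test called 10667 of 44840 features lower. The median difference of the genes was -5.11 on the E1A scale and -2.05 after normexp correction, which turned HMMR (0.25), CEP55 (0.43) and CKS2 (0.28) positive. The cause was not tested. Leaving out each array in turn gave 34 to 36 genes called (36 where CEP55 entered because the control array that missed it was left out) and medians between -4.12, without control replicate 2, and -3.72, without control replicate 1. Folds moved by over 1.5 times, up to 1.79 times, in MELK, TYMS, BUB1 and KIF4A, each detected on 1 ATPR array. CKS2 was lost without control replicate 1 (adjusted p = 0.0504) or 3 (0.0575). With the replicate number as a block 35 genes were called lower, as without it. Whether same-numbered arrays share more than a number is not known. The correlations of their deviations from the group means were 0.25, -0.07 and -0.28. These also carry effects common to a whole array, so they cannot decide it. Of the 702 values of single genes under alternatives, 684 were counted as kept. For genes tested both ways this meant the same direction and the same side of the threshold. For CEP55, untested in the main test, it meant the same direction and a shift below its SD between arrays. Genes that the filter of an alternative removed were not counted. The signal over background on the ATPR arrays limits 11 of the genes to bounds.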
